A study of Homo sapiens with 8 samples.

Results

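The short arm of chromosome 9 (9p) was examined as a set of genes in the human ovarian cancer line UWB1.289. Members were chosen by position, as the genes whose start lies below 39 Mb on chromosome 9 of hg19. Of the 250 genes in this range, 17 were not included. This left 233 of the 25369 genes of the count table. Below, 9p and the arm mean this range, and short-arm genes beyond 39 Mb count with the rest of chromosome 9. A stretch from 16.4 to 33.4 Mb had been chosen because its genes were lower in cells without BRCA1, so the differences between the lines given here are a description and carry no test. The arm was therefore divided into distal 9p (below 16.4 Mb, 58 genes), middle 9p (that stretch, 75 genes) and proximal 9p (33.4 to 39 Mb, 100 genes), and the 753 remaining genes of chromosome 9 served as background.

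Expression was read from poly(A) RNA sequencing of 8 libraries in 4 groups of 2. UWB1.289 carries a mutated BRCA1 gene and is called BRCA1-null, and its derivative into which wild-type BRCA1 was introduced is called BRCA1+. Each line received either DMSO (control) or 0.5 uM entinostat, an inhibitor of class I histone deacetylases, for 24 h. Both lines descend from 1 tumour line, so each genotype is 1 cell line, and whether the 2 libraries of a group came from separate cultures is not stated, so the p-values measure only the spread between these libraries. Total counts ranged from 31900158 to 53549893, and the limit that a count of 0 allows (3 counts) lay between 0.0552 and 0.0946 CPM (counts scaled to a common library size of 1e6). BRCA1 itself lay higher in all 4 BRCA1+ than in all 4 BRCA1-null libraries. The epithelial markers PAX8, EPCAM, KRT7, KRT8 and KRT18 were abundant, with PAX8 at 329 to 419 CPM, whereas WT1 did not exceed 0.50 CPM and the stromal markers LUM and DCN had 0 counts throughout.

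The short arm of chromosome 9 carries genes of many unrelated functions side by side. They include the cluster of type I interferon genes, the gene for MTAP, which salvages methionine and adenine from a by-product of polyamine synthesis, the ribosomal protein gene RPS6, the ATPase gene VCP, which extracts ubiquitinated proteins for degradation, and transcription factor genes such as NFIB and PAX5. Parts of the arm are often lost in human cancers. Histone deacetylase inhibitors raise the acetylation of histones and change the expression of many genes in either direction.

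Promoter sequences of 7 genes to which the results below return are shown first. They are the 250 bases immediately before the transcription start in RefSeq (GRCh38.p14), read 5' to 3' on the strand of the gene, with matches to 4 motifs in capitals. The motifs are the GC box (GGGCGG), the CCAAT box (CCAAT), the TATA box (TATAAA) and the E-box (CACGTG), each searched on both strands. KIAA1161 (now MYORG), B4GALT1, RECK, GLIPR2 and PLIN2 were raised by entinostat in both lines, VCP was lowered in both, and SLC1A1 showed the lowest ratio of BRCA1-null to BRCA1+ cells among the well expressed genes.
KIAA1161 (MYORG), chr9:34376899-34377148, minus strand: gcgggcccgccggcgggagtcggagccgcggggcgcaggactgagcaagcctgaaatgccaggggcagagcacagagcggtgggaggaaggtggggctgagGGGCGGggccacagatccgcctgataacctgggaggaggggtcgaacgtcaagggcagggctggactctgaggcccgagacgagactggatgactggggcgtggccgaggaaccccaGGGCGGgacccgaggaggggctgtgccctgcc
B4GALT1, chr9:33167160-33167409, minus strand: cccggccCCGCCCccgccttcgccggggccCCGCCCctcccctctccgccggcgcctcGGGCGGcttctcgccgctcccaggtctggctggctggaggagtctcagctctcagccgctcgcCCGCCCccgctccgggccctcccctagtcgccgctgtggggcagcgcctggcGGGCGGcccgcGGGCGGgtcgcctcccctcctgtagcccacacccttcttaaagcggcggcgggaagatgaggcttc
RECK, chr9:36036663-36036912, plus strand: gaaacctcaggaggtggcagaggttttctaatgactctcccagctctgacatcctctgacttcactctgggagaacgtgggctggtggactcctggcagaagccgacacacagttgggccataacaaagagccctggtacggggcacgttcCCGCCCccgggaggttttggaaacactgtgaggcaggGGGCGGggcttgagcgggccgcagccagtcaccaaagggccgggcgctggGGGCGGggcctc
GLIPR2, chr9:36136483-36136732, plus strand: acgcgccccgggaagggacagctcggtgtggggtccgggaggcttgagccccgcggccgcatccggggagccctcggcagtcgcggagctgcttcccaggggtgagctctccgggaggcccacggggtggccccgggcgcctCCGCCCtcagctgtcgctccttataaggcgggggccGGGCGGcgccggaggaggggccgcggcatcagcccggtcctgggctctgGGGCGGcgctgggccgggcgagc
PLIN2, chr9:19127493-19127742, minus strand: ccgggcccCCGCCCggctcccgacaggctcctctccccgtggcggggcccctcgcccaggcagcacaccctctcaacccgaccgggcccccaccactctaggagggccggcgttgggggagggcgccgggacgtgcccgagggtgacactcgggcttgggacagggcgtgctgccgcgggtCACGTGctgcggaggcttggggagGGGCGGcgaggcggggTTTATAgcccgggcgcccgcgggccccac
VCP, chr9:35072626-35072875, minus strand: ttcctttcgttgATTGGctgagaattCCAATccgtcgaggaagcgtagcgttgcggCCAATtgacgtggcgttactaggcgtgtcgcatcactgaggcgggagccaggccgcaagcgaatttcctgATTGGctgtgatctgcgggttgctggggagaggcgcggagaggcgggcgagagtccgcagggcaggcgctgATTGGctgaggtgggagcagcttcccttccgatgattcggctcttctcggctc
SLC1A1, chr9:4490218-4490467, plus strand: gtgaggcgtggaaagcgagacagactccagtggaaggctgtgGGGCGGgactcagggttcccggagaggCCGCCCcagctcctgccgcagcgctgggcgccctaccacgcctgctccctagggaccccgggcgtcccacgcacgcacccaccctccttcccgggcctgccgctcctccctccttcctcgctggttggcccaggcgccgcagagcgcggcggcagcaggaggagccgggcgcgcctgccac

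The sequences differ in composition, from 60.8% G and C for VCP to 78.4% for GLIPR2, against a median of 58% over all 35116 promoters of the RefSeq table. The GC box matched 6 times before B4GALT1, 3 times each before RECK and GLIPR2, and 2 times each before KIAA1161, PLIN2 and SLC1A1. VCP had no GC box and 5 CCAAT boxes. PLIN2 was the one sequence of the 7 with a TATA box and with an E-box. Of the 233 genes, 180 were matched to the table, 161 by symbol and 19 by an older symbol. The GC box was present in 63.2% of the 136 matched genes that entered the tests, in 53.9% of all 180 matched genes and in 42.6% of all promoters. The last 2 sets were not filtered on expression. In the same order, the CCAAT box was present in 36%, 30.6% and 32%, the TATA box in 7.35%, 7.22% and 10.7%, and the E-box in 5.15%, 4.44% and 6.34%. A match describes letters and is not a binding site.

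Of the 233 members, 167 passed the filter on low counts, 46 in distal, 44 in middle and 77 in proximal 9p. The other 66 had at most 15 counts in any library, and 23 of them had 0 counts in all 8 libraries. A mean log2 CPM of 3 or more was reached by 92 members, which are called well expressed below. The highest level per transcript length was that of RPS6, at 1970 FPKM (mean of 2 libraries) in BRCA1+ control and 1310 FPKM in BRCA1-null control cells, and the next was that of CLTA, the clathrin light chain A, at 199 and 126 FPKM. The filter kept genes whose counts were high enough in about as many libraries as a group holds, so the counts below are over genes that passed, not over all members.

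Genes of 9p were lower in BRCA1-null than in BRCA1+ cells over the whole range below 39 Mb and not in the middle stretch alone. In DMSO the median log2 difference (BRCA1-null minus BRCA1+) was -0.57 over the 167 tested members, which corresponds to a ratio of 0.673, and -0.64 over the 92 well expressed members. It was -0.56 in distal, -0.61 in middle and -0.56 in proximal 9p, whereas it was 0.12 over 554 tested genes on the rest of chromosome 9 and 0.012 over all 17714 tested genes. Of the 167 members, 110 were called lower and 6 higher (edgeR, adjusted p under 0.05), beside 42.2% of all tested genes called in either direction, 21.0% lower and 21.1% higher. As the members were chosen on this contrast, nothing is read from that count. On the rest of chromosome 9, 13.7% of tested genes were called lower and 26.7% higher.

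The lower level was shared by most members rather than carried by a few. Of the 92 well expressed members, 90 had a log2 difference below 0 in DMSO, 73 lay between -1 and -0.25 and 12 lay below -1. Of all 10527 tested genes at this level, 56.4% lay below 0. The share of members called lower rose with the level of the gene. All 51 members with a mean log2 CPM of 5 or more were called lower, 32 of 41 between 3 and 5, 18 of 32 between 1 and 3, and 9 of 43 below 1, where the median SE of a difference was 0.378 against 0.0759 in the top class. Over all tested genes 21.0% were called lower, and 28.9% of those at a mean log2 CPM of 3 or more. The members were chosen on this contrast, so nothing is read from these counts. For 103 of 167 members the 4 BRCA1-null libraries all lay below the 4 BRCA1+ libraries, and for 6 they all lay above. Over all tested genes each pattern held for 20.1%, and the first on the rest of chromosome 9 for 10.5%.

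**Figure D1:**
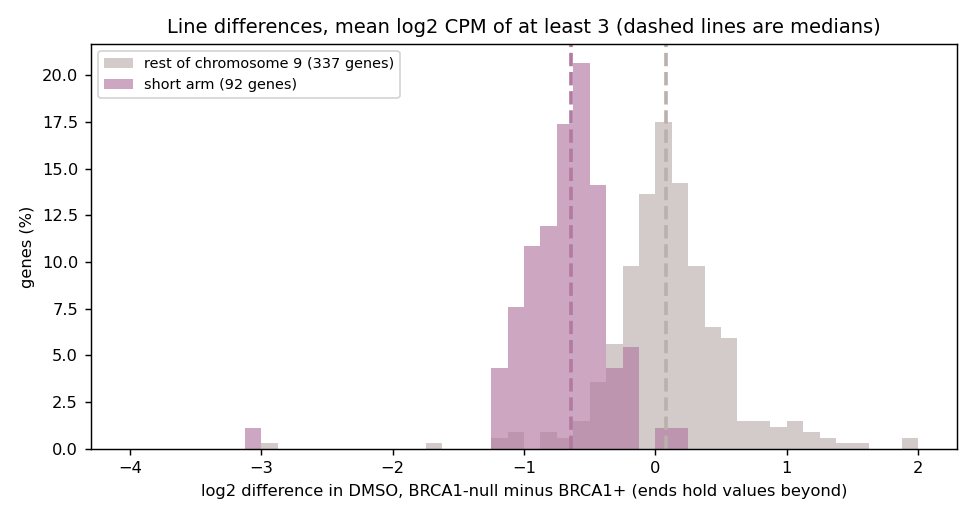
Histograms of the log2 difference in DMSO (BRCA1-null minus BRCA1+, x axis) as a percentage of genes (y axis) for well expressed genes of the short arm (92 genes) and of the rest of chromosome 9 (337 genes), with the medians as dashed lines. The short arm lies around its median of -0.64 and the rest of the chromosome around 0.08, with little overlap.

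The same level difference was seen in every library. Each gene's log2 level was taken relative to its mean over the 8 libraries, and the median over the 92 well expressed members was formed in each library. In BRCA1+ cells this median was 0.329 and 0.327 in control and 0.323 and 0.303 in entinostat libraries. In BRCA1-null cells it was -0.312 and -0.320 in control and -0.322 and -0.264 in entinostat libraries. The lines did not overlap, and libraries of the same line differed by at most a small part of the gap between the lines. Members of 9p took 0.756% to 0.764% of all counts in BRCA1+ libraries and 0.504% to 0.506% in BRCA1-null libraries. For the rest of chromosome 9 the share was 2.70% to 2.78% in BRCA1+ and 2.98% to 3.03% in BRCA1-null libraries. In bulk RNA, fewer cells that express a gene and less of its RNA per cell cannot be told apart.

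**Figure D2:**
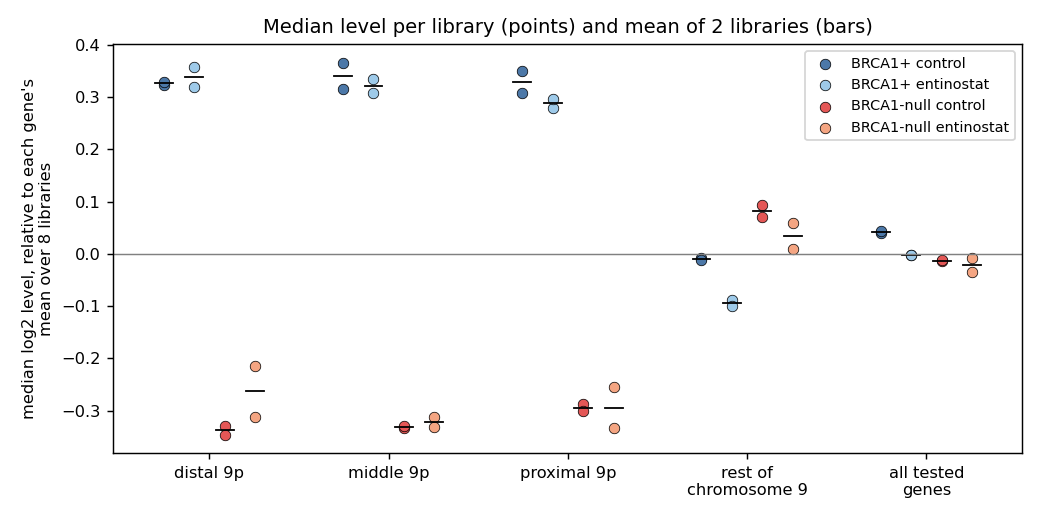
Median log2 level (y axis, relative to each gene's mean over the 8 libraries) of the well expressed genes of each stretch of chromosome 9 and of all tested genes (x axis), with a point per library and a bar at the mean of 2 libraries. All 3 stretches of the short arm are above 0.27 in the BRCA1+ libraries and below -0.21 in the BRCA1-null libraries, whereas all tested genes stay near 0.

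Along the arm the difference was even. Running medians over 15 neighbouring well expressed genes stayed between -0.83 and -0.55 in all 78 windows that lie within 9p in DMSO and between -0.79 and -0.51 in entinostat. The lowest window in DMSO was centred on CLTA in proximal 9p and the highest on PLGRKT in distal 9p. In the 323 windows on the rest of the chromosome, the running median ranged from -0.30 to 0.42. The highest of these was centred on TMEM2. The median over the 96 well expressed genes of 9p, those not included above among them, was -0.64 in DMSO and -0.59 in entinostat, and that over the whole of chromosome 5 was -0.57 and -0.53. Chromosome 9 alone was divided into its arms, so no order among chromosomes is read from this.

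**Figure D3:**
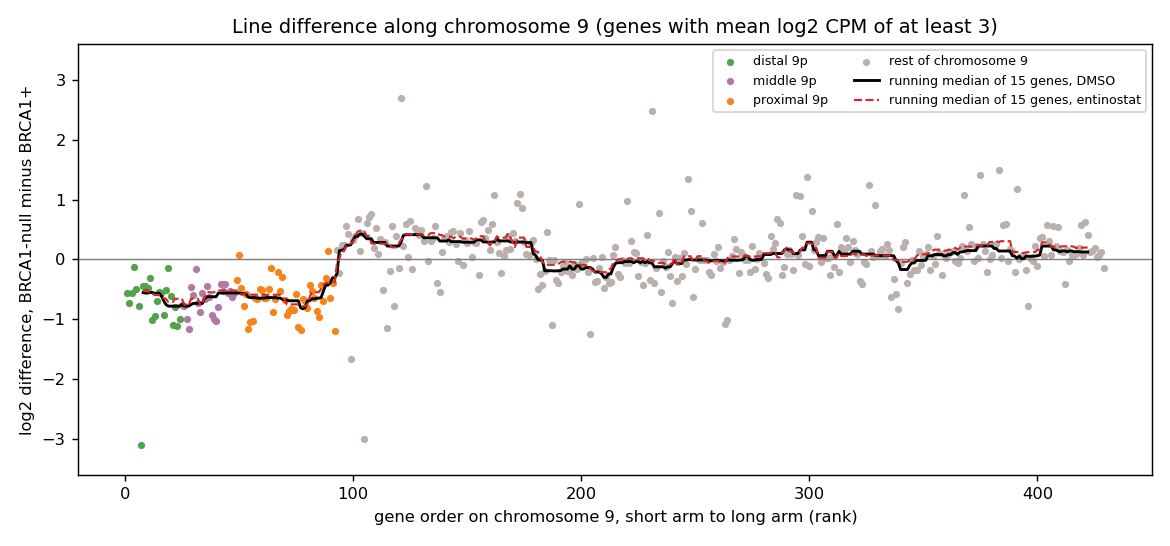
Log2 difference between the lines in DMSO (y axis) of each well expressed gene of chromosome 9 against its rank in chromosomal order (x axis), with running medians of 15 genes in DMSO (solid line) and in entinostat (dashed line). Both lines run between -0.83 and -0.51 in the 78 windows wholly below 39 Mb and climb to values above 0 in the windows that reach past it.

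Genes next to the borders of the middle stretch varied in their values on both sides. Below the border at 16.4 Mb, the log2 differences in DMSO were -1.12 for SNAPC3, a subunit of the complex that activates small nuclear RNA genes, -0.99 for PSIP1, a chromatin reader, and -0.31 for CCDC171. Above it they were -0.75 for the zinc finger gene BNC2, -0.78 for the centrosomal gene CNTLN and -5.53 for ADAMTSL1, a secreted matrix protein. Just inside the border at 33.4 Mb, BAG1, CHMP5 and NFX1 were at -0.53, -0.63 and -0.56, and just outside it NOL6, ANKRD18B and UBE2R2 were at -0.34, 0.07 and -0.47, all 3 above those inside. The last members before 39 Mb were FAM95C at -0.17, ANKRD18A at -0.42 and FAM201A at -0.61. The first genes beyond, at about 42 Mb, were GLIDR at 0.36, KGFLP2 at 0.52 and AQP7P3 at -0.99. ANKRD18A, ANKRD18B, FAM95C, FAM201A, KGFLP2 and AQP7P3 belong to families with near-identical copies, and how reads with several positions were counted is not stated, so their values are uncertain.

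The same lines were also compared under entinostat, and since the choice of the arm did not name a treatment, these values are a description too. The median over the 167 tested members was -0.56 there and over the 92 well expressed members -0.59. Of the 167, 106 were called lower and 6 higher, beside 39.4% of all tested genes (18.9% lower and 20.5% higher). In the 3 stretches the medians were -0.55, -0.62 and -0.55, against 0.15 on the rest of chromosome 9. Across the 92 well expressed members, which are not independent replicates and share the libraries, the difference in entinostat correlated with that in DMSO (Pearson's r = 0.939, Spearman's rho = 0.904), and the median absolute gap between them was 0.0885 on the log2 scale. Over all 167 members r was 0.859 and rho was 0.778. Called lower in both treatments were 99 members, and called higher in both were 4. The shares over all tested genes called in both were not computed, so nothing is read from these counts.

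The members are described below by role. Counts of calls between the lines by role rest on the contrast that chose the arm, where 65.9% of tested members and 21.0% of all tested genes were called lower, and they show nothing particular to a role. On the list of chromatin and transcription genes, 18 of 23 tested were called lower (21.0% of all tested genes) and 1 higher (21.1%) in DMSO, and the median log2 difference was -0.76. NFIB (chromosome 9, 14081842 to 14398982 on hg19), a nuclear factor I transcription factor, had 167 and 181 CPM in BRCA1+ cells under DMSO and 170 and 172 CPM under entinostat, against 81.2 and 81.1 CPM (DMSO) and 77.6 and 73.6 CPM (entinostat) in BRCA1-null cells. Its BRCA1-null libraries all lay far below its BRCA1+ libraries, and the log2 difference was -1.10 ± 0.06 (SE) in DMSO. PSIP1, which tethers transcription factors to chromatin, fell from 151 and 155 CPM to 72.1 and 81.3 CPM in DMSO, again without overlap. SMARCA2, an ATPase of the SWI/SNF remodelling complex, had 97.4 and 102 CPM against 65.1 and 69.8 CPM, a log2 difference of -0.56 ± 0.08. The histone demethylase gene KDM4C and the ubiquitin ligase gene UHRF2 were at -0.52 ± 0.08 and -0.57 ± 0.13. MLLT3, a subunit of the super elongation complex, differed little in DMSO, with 7.45 and 6.12 CPM against 5.05 and 6.97 CPM, and these libraries overlapped.

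The 3 DMRT genes at the distal end, members of a transcription factor family best known for sexual differentiation, were expressed at low levels. DMRT3 had 40 and 37 counts in BRCA1+ control and 10 and 6 counts in BRCA1-null control libraries. DMRT2 had 21 and 31 counts against 3 and 8. DMRT1 had 1.65 and 1.63 CPM against 1.41 and 0.975 CPM, a log2 difference of -0.48 ± 0.34 that is close to its error. The control libraries of the lines did not overlap for any of the 3 genes, at counts that are low for DMRT2 and DMRT3.

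Of the 9 genes of the ribosome and RNA processing, 8 were called lower in DMSO, beside 65.9% of the arm and 21.0% of all tested genes. Their log2 differences ranged from -0.96 to 0.09 with a median of -0.49. RPS6 (19376254 to 19380235), a protein of the small ribosomal subunit, had 1620 and 1650 CPM in BRCA1+ cells under DMSO and 1590 and 1640 CPM under entinostat, against 1070 and 1100 CPM (DMSO) and 1120 and 1130 CPM (entinostat) in BRCA1-null cells. The lines were far apart for this gene and the treatments were not. POLR1E, a subunit of RNA polymerase I, had the lowest ratio of the group, with 83.7 and 88.4 CPM against 43.4 and 44.8 CPM. The exosome subunit gene EXOSC3 was at -0.69 ± 0.08, the nucleolar gene NOL6 at -0.34 ± 0.07 and the tRNA methyltransferase gene TRMT10B at 0.09 ± 0.17.

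Metabolic and transporter genes ranged from -3.11 to 1.58 in DMSO. Of 22 tested, 14 were called lower and 1 higher in DMSO, a share lower that is close to the 65.9% of the arm (21.0% of all tested genes), and the median was -0.54. SLC1A1 (4490427 to 4587469), a transporter of glutamate and cysteine, had 18.3 and 21.4 CPM in BRCA1+ cells under DMSO and 23.3 and 27.2 CPM under entinostat, against 2.68 and 1.97 CPM (DMSO) and 4.71 and 3.50 CPM (entinostat) in BRCA1-null cells. It lay farther below BRCA1+ than any other well expressed member, at a ratio of 0.116 in DMSO, and its promoter is among those shown above. MTAP (21802635 to 21865969) was expressed in both lines, with 79.5 and 80.7 CPM against 53.6 and 55.2 CPM in DMSO, a log2 difference of -0.56 ± 0.06. ACO1, a cytosolic aconitase that also regulates iron metabolism, had 74.3 and 72.3 CPM against 35.5 and 36.6 CPM. AK3, a mitochondrial adenylate kinase, and VLDLR, a lipoprotein receptor, were among the highest differences of distal 9p, at -0.44 ± 0.08 and -0.13 ± 0.09. PTPLAD2, an enzyme of fatty acid elongation, went the other way, with 24 and 13 counts in BRCA1+ control against 60 and 69 counts in BRCA1-null control libraries.

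Of 26 tested genes of protein turnover, chaperones and vesicle traffic, 23 were called lower and 1 higher in DMSO, beside 65.9% and 3.59% of the arm and 21.0% and 21.1% of all tested genes, and the median was -0.64. VCP (35056065 to 35072739) had 467 and 467 CPM in BRCA1+ cells under DMSO and 383 and 384 CPM under entinostat, against 294 and 303 CPM (DMSO) and 247 and 263 CPM (entinostat) in BRCA1-null cells, so that line and treatment each separated its libraries. UBAP1, a subunit of the ESCRT-I sorting complex, had 66.8 and 65.4 CPM against 26.9 and 32.1 CPM in DMSO. RRAGA, a GTPase that signals amino acids to mTORC1, and C9orf72, a regulator of autophagy, were each at -0.99. The exception was DNAJB5, a cochaperone of the HSP40 family, with 5.10 and 2.83 CPM against 6.55 and 6.16 CPM.

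Among cytoskeletal and centrosomal genes, 14 of 16 tested were called lower and 0 higher, beside 65.9% lower over the arm and 21.0% over all tested genes, with a median of -0.76. HAUS6 (19053135 to 19102940), a subunit of the augmin complex that nucleates spindle microtubules, had 105 and 107 CPM in BRCA1+ cells under DMSO and 109 and 112 CPM under entinostat, against 48.4 and 45.6 CPM (DMSO) and 53.3 and 52.4 CPM (entinostat) in BRCA1-null cells. It had the lowest well expressed value of middle 9p, at -1.17 ± 0.06. TLN1, or talin, which links integrins to actin, was the most abundant of the list by CPM and had 470 and 445 CPM against 239 and 241 CPM. Tropomyosin gene TPM2 and the mitotic kinase gene MELK were at -0.68 ± 0.08 and -0.81 ± 0.06. DOCK8, an exchange factor for CDC42, was lower at -1.39 ± 0.20 but at a level of 4.78 and 5.75 CPM against 2.13 and 1.91 CPM.

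Secreted factors, receptors and surface proteins were mostly silent or low in these cells. Of the 17 type I interferon genes, 11 had 0 counts in all libraries, and IFNE alone passed the filter, at 0.575 and 0.283 CPM in BRCA1+ control and 0.615 and 0.276 CPM in BRCA1-null control libraries. Of 14 cytokine, hormone and receptor genes, 5 passed the filter, and 2 were called lower and 1 higher in DMSO (21.0% and 21.1% of all tested genes). IGFBPL1, an insulin-like growth factor binding protein, had the lowest well expressed value of proximal 9p, with 16.6 and 14.6 CPM against 8.62 and 5.22 CPM. The gene called higher was RLN2 (5299866 to 5304611), the hormone relaxin, with 3 and 3 counts in BRCA1+ cells under DMSO and 7 and 7 counts under entinostat, against 28 and 35 counts (DMSO) and 47 and 64 counts (entinostat) in BRCA1-null cells. Summed over 2 libraries its ratio of BRCA1-null to BRCA1+ was 9.03 in DMSO (95% exact interval 3.92 to 25.5) and 6.98 in entinostat (3.99 to 13.2), intervals that cover counting error only. RLN2 was high enough for the filter in BRCA1-null cells alone, so selection favoured such a ratio and the intervals are no test of it. It was the reverse of the arm as a whole, at a level near the floor.

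Of the 10 adhesion and surface genes, 4 were called lower and 0 higher, beside 65.9% lower over the arm and 21.0% over all tested genes, with a median of -0.41. ADAMTSL1 (18474079 to 18910947) had 165 and 324 counts in BRCA1+ cells under DMSO and 105 and 228 counts under entinostat, against 6 and 6 counts (DMSO) and 4 and 2 counts (entinostat) in BRCA1-null cells. Its ratio of BRCA1+ to BRCA1-null was 47.4 in DMSO (95% exact interval 26.9 to 92.4, counting error only), the largest of the arm. ADAMTSL1 was high enough for the filter in BRCA1+ cells alone, so this interval is no test of the lines. Its BRCA1+ libraries differed among themselves, replicate 2 lying above replicate 1 in both treatments. RECK, an inhibitor of matrix metalloproteinases, was at -1.12 ± 0.14. PTPRD, a receptor tyrosine phosphatase, had 3.23 and 3.20 CPM against 3.03 and 2.30 CPM, a log2 difference of -0.28 ± 0.21 within the spread.

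The 6 members called higher in BRCA1-null cells in DMSO were RLN2, PTPLAD2, MIR31HG, PAX5, SUGT1P1 and DNAJB5. MIR31HG and SUGT1P1 were named after their values were seen. All 6 had a mean log2 CPM under 3. PAX5, a B cell transcription factor, had 0 and 1 counts in BRCA1+ control and 6 and 10 counts in BRCA1-null control libraries, a ratio of 13.8 with a 95% exact interval of 2.14 to 577 (counting error only). It was high enough for the filter in BRCA1-null cells alone, so this interval is no test of the lines. MIR31HG, the host transcript of a microRNA, had 0.976 and 1.05 CPM against 1.85 and 2.35 CPM. SUGT1P1 is a pseudogene and may share reads with its parent gene. Among well expressed members the highest differences were 0.14 ± 0.17 for the mitochondrial carrier SLC25A51 and 0.07 ± 0.11 for ANKRD18B, both within their errors. MicroRNA and small nucleolar RNA genes that lie inside other members, such as SCARNA8 in HAUS6 and MIR491 in FOCAD, share exons or introns with their hosts and cannot be separated from them, nor can antisense genes, because strand in the counting is not stated.

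**Figure D4:**
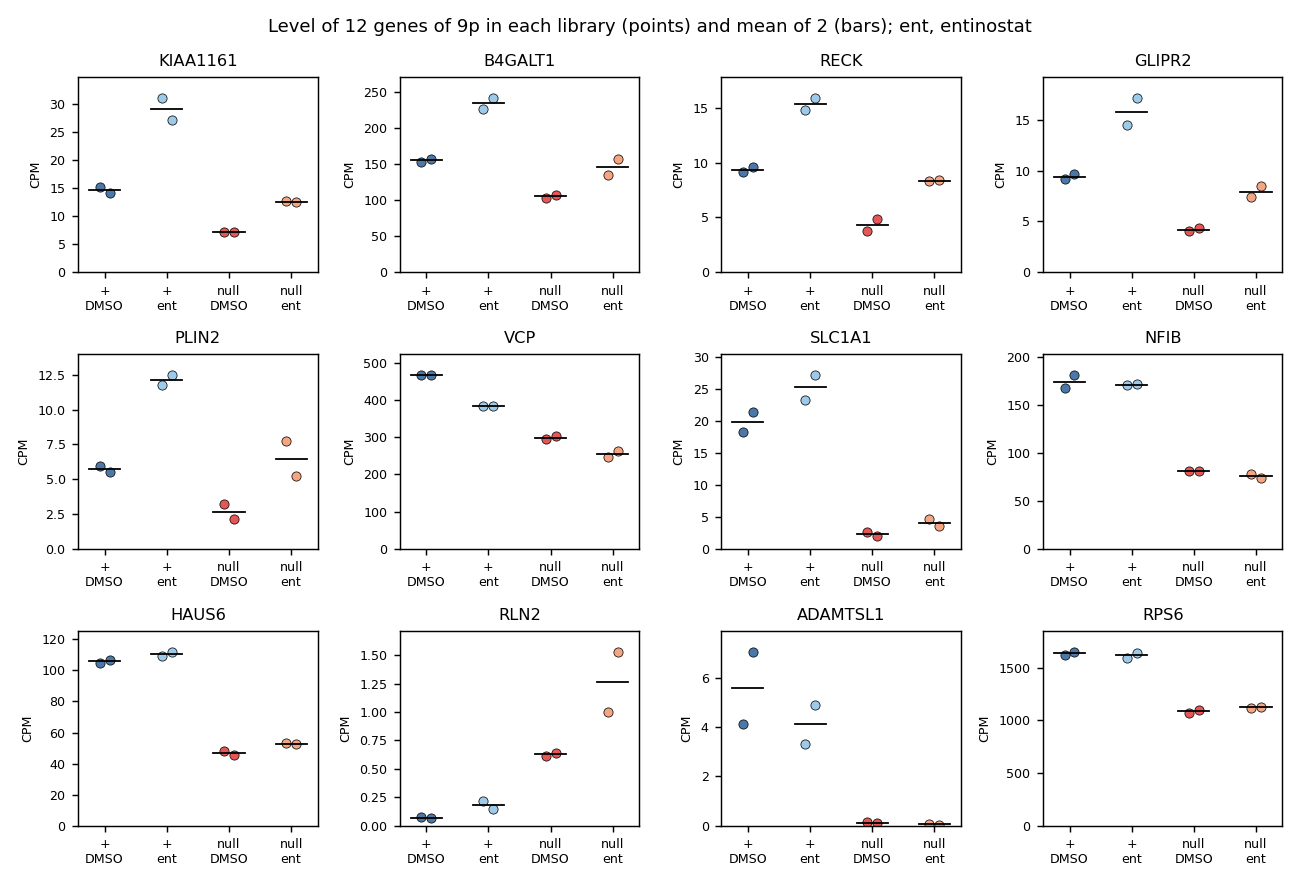
CPM (y axis, from 0) of 12 members in each library (points) with the mean of 2 libraries (bars), for BRCA1+ (+) and BRCA1-null (null) cells in DMSO and in entinostat (ent). KIAA1161, B4GALT1, RECK, GLIPR2 and PLIN2 rise with entinostat in each line, VCP falls, RPS6, NFIB and HAUS6 follow the line, and RLN2 is higher in BRCA1-null cells.

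Entinostat was tested in each line, since this contrast played no part in the choice of members. In BRCA1+ cells, 23 of 167 members were called, 15 higher and 8 lower, beside 14.1% of all tested genes (8.13% higher and 6.00% lower), so the share was close to the background. In BRCA1-null cells, 14 were called, 12 higher and 2 lower, beside 10.8% of all tested genes (7.57% and 3.19%). The median log2 fold change over the 167 members was 0.017 in BRCA1+ and 0.038 in BRCA1-null cells, beside 0.00041 and 0.019 over all tested genes. With upper-quartile scaling, 19 members were called higher and 5 lower in BRCA1+ cells. The counts depended on single libraries. In BRCA1+ cells they were 13 and 7 without control replicates 1 and 2 and 9 and 5 without entinostat replicates 1 and 2, and in BRCA1-null cells they were 8 and 5 without control replicates 1 and 2 and 7 without either entinostat replicate.

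In both lines, 9 members were called, which is 39.1% of those called in BRCA1+ and 64.3% of those called in BRCA1-null cells. The same shares over all tested genes were not computed, so nothing particular to 9p is read from them. Entinostat raised KIAA1161, B4GALT1, RECK, GLIPR2, PLIN2, LINGO2, TTC39B and GLDC in both and lowered VCP in both. The 19 members called in 1 line only had the same sign in the other line. How often this held over all tested genes was not computed either, so it is not read as particular to 9p. The test of the difference between the lines (interaction) called 0 of 167 members and 0 of all 17714 tested genes with edgeR, so the 0 is not particular to 9p. Of the members, 7 (4.19%) had an unadjusted p under 0.05 beside 4.67% of all genes, and DESeq2 called 0 members as well. The smallest adjusted p of the interaction (edgeR) was 0.967 among members and 0.66 over all tested genes. Being called in 1 line and not in the other is therefore not shown to be a difference between the lines.

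KIAA1161 (34366664 to 34376894), a glycosidase, gave the firmest response. It rose from 15.1 and 14.0 CPM to 31.0 and 27.0 CPM in BRCA1+ cells, a log2 fold change of 0.99 ± 0.10 (adjusted p = 0.000634). In BRCA1-null cells it rose from 7.05 and 7.19 CPM to 12.7 and 12.4 CPM, a log2 fold change of 0.81 ± 0.11 (adjusted p = 0.00403). Its level in treated BRCA1-null cells stayed below that in untreated BRCA1+ cells. B4GALT1 (33110639 to 33167356), a galactosyltransferase of glycoprotein synthesis, rose from 153 and 157 CPM to 226 and 241 CPM in BRCA1+ (adjusted p = 0.00179) and from 103 and 107 CPM to 135 and 156 CPM in BRCA1-null cells (adjusted p = 0.00687). These were the 2 members whose call in BRCA1+ cells held under every alternative applied to them. With RECK and GLIPR2 they were the 4 that did so in BRCA1-null cells. B4GALT1 overlaps another gene, so the alternative limited to members without overlap left it out (15 alternatives against 16 for KIAA1161). The antisense gene B4GALT1-AS1 rose with B4GALT1 in BRCA1+ cells, by 0.76 ± 0.13, and cannot be told apart from it without strand.

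RECK (36036910 to 36124452) and GLIPR2 (36136533 to 36163910), a Golgi-associated protein, are neighbours in proximal 9p and had nearly the same values. RECK rose from 9.13 and 9.59 CPM to 14.8 and 15.9 CPM in BRCA1+ and from 3.71 and 4.82 CPM to 8.28 and 8.40 CPM in BRCA1-null cells, by 0.72 ± 0.12 and 0.95 ± 0.14 on the log2 scale (adjusted p = 0.00613 and 0.00522). GLIPR2 rose from 9.15 and 9.72 CPM to 14.5 and 17.2 CPM and from 4.02 and 4.34 CPM to 7.44 and 8.45 CPM, by 0.76 ± 0.12 and 0.92 ± 0.14 (adjusted p = 0.00547 and 0.00689). For both genes the treated BRCA1-null libraries reached just below the untreated BRCA1+ libraries. Without BRCA1+ entinostat replicate 2, their adjusted p in BRCA1+ cells was 0.0657 and 0.0618.

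PLIN2 (19115759 to 19127604), which coats lipid droplets, showed the largest rise with entinostat in BRCA1-null cells among the called members with a mean log2 CPM of 1 or more. It went from 5.95 and 5.51 CPM to 11.8 and 12.5 CPM in BRCA1+ and from 3.21 and 2.12 CPM to 7.72 and 5.20 CPM in BRCA1-null cells, with log2 fold changes of 1.09 ± 0.20 and 1.31 ± 0.24 (adjusted p = 0.0080 and 0.0115). The call was lost in BRCA1+ cells without control or entinostat replicate 2 and in BRCA1-null cells without control replicate 2 or entinostat replicate 1. LINGO2, a leucine-rich repeat protein of neurons, rose by 1.53 ± 0.26 and 1.33 ± 0.23, from about 1 CPM or less to between 1.99 and 2.73 CPM in each treated library. GLDC, the glycine decarboxylase of the glycine cleavage system, rose by 0.54 ± 0.15 and 0.63 ± 0.16 (adjusted p = 0.0397 and 0.0394), and 5 of 16 and 6 of 16 alternatives removed these calls. TTC39B rose by 0.60 ± 0.11 and 0.50 ± 0.13, and its call in BRCA1-null cells (adjusted p = 0.0426) was lost without any one of the 8 libraries.

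In BRCA1+ cells alone, the calls that rose were those of MLLT3 (0.94 ± 0.17), ELAVL2, an RNA-binding protein of neurons (0.82 ± 0.23), B4GALT1-AS1, the ubiquitin ligase subunit FBXO10 (0.69 ± 0.14), SPATA6L, and the water channel AQP3 and trypsinogen PRSS3. AQP3 and PRSS3 went from 4 and 8 and from 6 and 2 counts in control to 17 and 40 and 16 and 35 counts in entinostat libraries. Within BRCA1+ cells both were high enough for the filter with entinostat alone, so selection may have favoured such a rise. The calls of AQP3, SPATA6L, PRSS3 and FBXO10 were removed by 7 of 15, 5 of 15, 4 of 15 and 4 of 16 alternatives. MLLT3 went from 7.45 and 6.12 CPM to 14.0 and 12.1 CPM, and in BRCA1-null cells it had a log2 fold change of 0.54 ± 0.17 (adjusted p = 0.0765). In BRCA1-null cells alone, PSIP1 rose from 72.1 and 81.3 CPM to 95.9 and 112 CPM (0.44 ± 0.09), and DMRT2 rose from 3 and 8 counts to 21 and 22 counts. The calls of PSIP1 and DMRT2 in these cells were removed by 3 of 16 and 5 of 15 alternatives. LURAP1L and PAX5 were also called higher there, PAX5 with 30 and 13 counts after entinostat. PAX5 was high enough for the filter in these treated libraries alone, so selection favoured its rise and its call is no firm test. ELAVL2, LURAP1L and PAX5 had adjusted p-values of 0.0478, 0.0415 and 0.0453, and 9 of 16, 8 of 16 and 10 of 14 alternatives removed the call.

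Falls were smaller. VCP went down by a log2 fold change of -0.28 ± 0.05 (adjusted p = 0.00793) in the BRCA1+ line and -0.23 ± 0.05 (adjusted p = 0.0244) in the BRCA1-null line, with no overlap between treated and untreated libraries of a line. Its calls were removed by 2 of 16 and 3 of 16 alternatives. In BRCA1+ cells, TUSC1, a candidate tumour suppressor in middle 9p, fell from 15.4 and 14.4 CPM to 10.4 and 9.14 CPM (-0.62 ± 0.13). NOL6, EXOSC3 and KIAA0020, which act on RNA in the nucleus or nucleolus, fell by 0.37, 0.32 and 0.29 on the log2 scale, and 2 of 15, 5 of 16 and 6 of 16 alternatives removed these calls. FAM201A fell by 0.75, a call that 4 of 16 alternatives removed, and WASH1 by 0.52. WASH1 has near-identical copies elsewhere, and 11 of 15 alternatives removed its call. In BRCA1-null cells CCDC171 was the other gene that fell, from 3.47 and 2.80 CPM to 1.88 and 1.58 CPM (-0.84 ± 0.20, adjusted p = 0.0325). Its call was removed by 7 of 16 alternatives.

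**Figure D5:**
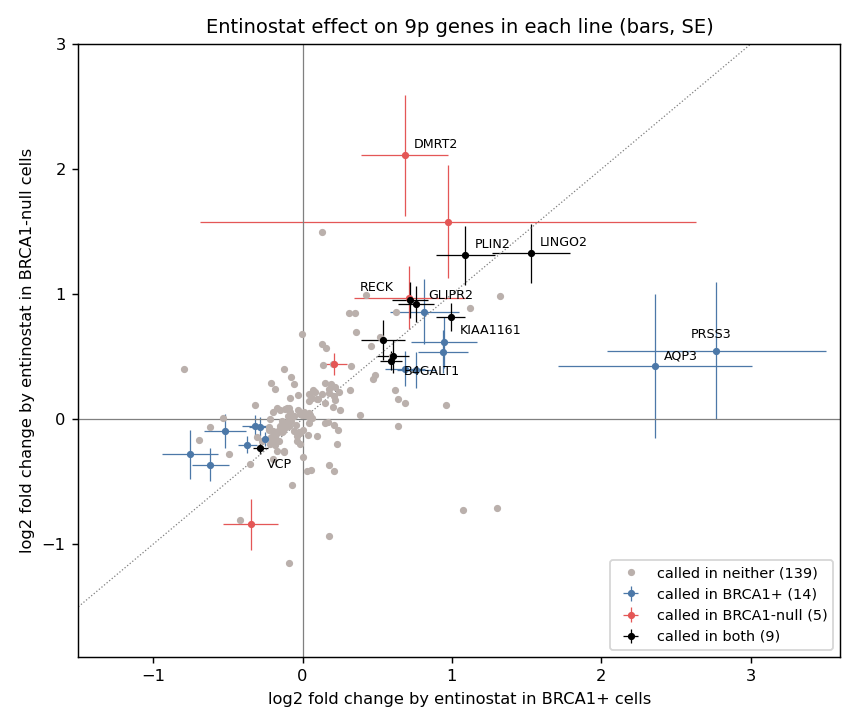
Log2 fold change by entinostat of the 167 tested members in BRCA1+ (x axis) and BRCA1-null cells (y axis), coloured by where they were called, with SE bars for called members and a dotted line of equal change. The 9 members called in both lines lie near the dotted line, and most members lie near 0 on both axes.

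The entinostat calls were also counted by role, beside 8.13% of all tested genes raised and 6.00% lowered in BRCA1+ and 7.57% and 3.19% in BRCA1-null cells. None of the 16 cytoskeletal and centrosomal genes or of the 5 cytokine, hormone and receptor genes was called in either line. Of the 9 genes of ribosome and RNA processing, 0 rose and 3 fell in BRCA1+ and 0 were called in BRCA1-null cells, a difference that the interaction did not call. In BRCA1+ cells, 2 of 23 chromatin and transcription genes rose and 0 fell, 4 of 22 metabolic and transport genes rose and 1 fell, 1 of 26 protein turnover genes rose and 1 fell, and 2 of 10 adhesion genes rose and 0 fell. In BRCA1-null cells these counts were 3 and 0, 3 and 0, 0 and 1, and 2 and 0. IFNE, the one type I interferon gene above the filter, was at a log2 fold change of 0.36 ± 0.52 in the BRCA1+ line and of 0.69 ± 0.46 in the BRCA1-null line, not beyond the spread.

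Among genes with promoter sequences, the TATA box was present in 5 of the 19 raised in at least 1 line (26.3%) and in 0 of 8 lowered ones. The GC box was present in 12 of the 19 (63.2%) and 4 of the 8 (50%), against 63.2% of all tested and matched members. The median share of G and C was 69.6% for raised and 60.8% for lowered genes, against 63% for tested and matched members. With so few genes in the groups, these shares are given as a description and no difference in motif content is read from them.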

How the data were processed

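Poly(A) RNA of 8 libraries was analysed, 2 in each of 4 groups taken from the sample titles. The values were raw read counts per gene symbol, deposited by the authors in one table on hg19. The authors had aligned reads with TopHat 2 and counted them with NGSUtils, and how counting treated strand and reads with several positions is not given in the sources used here. Because nothing was normalised before deposit, scaling was computed here. Genes were filtered with filterByExpr and scaled with TMM (trimmed mean of M values), and all libraries entered one edgeR 4.0.16 quasi-likelihood fit in R 4.3.3 with a mean per group (4 residual degrees of freedom). Calls were made at a two-sided Benjamini-Hochberg adjusted p under 0.05 over all 17714 tested genes, and adjusted p-values without another name come from this fit. CPM used effective library sizes, and FPKM divides CPM by exon length in the table. Start positions are counted from 1.

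The members and gene lists were chosen with earlier results of these data known. Named genes were tested members of 8 lists by role, for entinostat in each line the 5 largest rises and 5 largest falls called at a mean log2 CPM of 1 or more, for the line difference the 4 highest and 4 lowest of each stretch at 3 or more, and 3 genes on each side of each border. Other members called with entinostat were added after their values were seen. The fit was tested on simulated data. Alternatives were DESeq2 1.42.0, other scalings and filters, a replicate block, only the groups compared, members without overlapping genes and the omission of each library. Replicates of a group correlated at 0.991 to 0.992 (Pearson's r of log2 CPM across genes) and differed by more than sampling noise. Promoters were read from RefSeq (GRCh38.p14). Of the genes of the arm, 17 that were not included and 1 called with entinostat are not reported here.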

Additional observations from a re-analysis of the deposited data

How the results depend on the processing

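The medians between the lines kept their sign under every alternative tried, as did the values of named genes called in the main fit. For named genes not called between the lines, a change of sign was not counted. With upper-quartile scaling the medians in DMSO were -0.516 in distal, -0.566 in middle and -0.514 in proximal 9p and 0.166 on the rest of chromosome 9, and with DESeq2 size factors the last was 0.136 in entinostat. Over well expressed genes alone the distal, proximal and remaining medians were -0.589, -0.650 and 0.0811 in DMSO and -0.606, -0.590 and 0.122 in entinostat. Members that overlap no other gene gave -0.517 for proximal 9p in DMSO and, in entinostat, -0.595, -0.536 and -0.439 for the 3 stretches, with 0.169 on the rest of the chromosome. Without a filter, proximal 9p was at -0.517 in DMSO and the stretches at -0.528, -0.559 and -0.498 in entinostat. A stricter filter gave -0.525 for distal 9p and 0.135 for the rest in DMSO, and -0.525, -0.660, -0.582 and 0.132 in entinostat. The last 3 settings differ in which genes remain. The changes of the filter also renewed the scaling and the fit, and these parts were not separated. The cause of the shifts was not tested further.

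Leaving out a library moved the DMSO medians between -0.602 and -0.535 in distal, -0.663 and -0.592 in middle and -0.631 and -0.500 in proximal 9p, and between 0.117 and 0.136 on the rest of chromosome 9. In entinostat the ranges were -0.618 to -0.521, -0.684 to -0.595, -0.558 to -0.476 and 0.113 to 0.148. Members called between the lines numbered 97 to 116 in DMSO and 89 to 114 in entinostat, members called with entinostat 5 to 22 in BRCA1+ and 5 to 11 in BRCA1-null cells, and the interaction 0 throughout. A lone library in a group was assumed to vary like the others. With only the BRCA1-null groups fitted, 6 members were called for entinostat in place of 14.

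With the replicate number as a block, entinostat calls rose to 39 in BRCA1+ cells (24 higher and 15 lower). In BRCA1-null cells the calls rose to 24 (21 and 3). Line differences rose to 123 in each treatment. The shares of all tested genes called with the block are not given, so nothing particular to the arm is read from these counts. Deviations of same-numbered libraries correlated at 0.242 to 0.739 across groups, so same-numbered libraries deviated together, but with 2 numbers and no label that ties them to a shared culture or day, they were not treated as pairs. In BRCA1+ cells 2 of 23 entinostat calls and in BRCA1-null cells 4 of 14 were kept under every alternative applied to the gene, and the depth limits genes under about 1 CPM.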
